A study of Mus musculus with 2 samples.

Results

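A list of 10 nuclear receptor genes was followed here, out of 15623 genes that the libraries of the series listed. They are the peroxisome proliferator-activated receptors (PPARs) Pparg, Ppard and Ppara, the liver X receptors (LXRs) Nr1h3 and Nr1h2, the orphan receptors Nr4a1, Nr4a2 and Nr4a3, the glucocorticoid receptor Nr3c1 and the vitamin D receptor Vdr. Members were found by NCBI gene number, and all 10 were listed in 1 or both libraries. The study compared wild-type C57BL/6 macrophages left nontreated (NT) with the same kind of cells given interleukin-4 (IL-4) for 6 h, with 1 library per group. The macrophages came from the peritoneal cavity of mice aged 6 to 8 weeks, 4 to 5 days after injection of 4% thioglycollate, and had adhered for 4 h before starvation in medium with 0.5% serum. Both libraries shared this elicitation and starvation. The number of animals behind each library was not given, and the labels also name bone marrow as the tissue, while the other fields and the methods describe peritoneal cells.

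Nuclear receptors are transcription factors whose activity many small lipophilic ligands control. PPARs bind fatty acids and their oxidized derivatives and LXRs bind oxysterols, and both act as partners of a retinoid X receptor (RXR) on genes of lipid uptake, oxidation and cholesterol efflux. In macrophages PPARγ and PPARδ are known for their part in alternative (M2) activation, the glucocorticoid receptor for restraint of inflammation, and the NR4A receptors as immediate early genes that act without a classical ligand.

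The NT library held 11035641 expected counts and the IL-4 library held 11250099, where an expected count is the estimated number of reads of a gene. A log2 ratio here is IL-4 over NT in CPM, counts scaled to the library total, with 0.5 count added, and its 95% interval is exact for how the reads of a gene divide between the libraries. Such intervals cover counting error only, and with no replicates no difference was checked against the spread between animals. Calls required a log2 ratio no smaller than 0.75 in either direction, an exact binomial p up to 0.05 and a Benjamini-Hochberg (BH) adjusted p up to 0.5. This test compares the 2 libraries and not the conditions. The known M2 genes Arg1, Chil3, Retnla and Mrc1 were all called higher. All 9 macrophage markers searched were listed in both libraries, and their list summed to 192222 counts in NT and 199032 in IL-4. Timd4 had only 12 and 10 of these and Gata6 54 and 77. Csf1r, with 6236 and 11896 counts, was the only macrophage marker called (higher). Of the markers of other cell types, the T-cell list summed to 19.74 and 15.16 counts in NT and IL-4, and the B-cell list to 106 and 96. The mast cell list summed to 69 and 51 counts, the eosinophil list to 71.77 and 43.23, and the mesothelium and fibroblast list to 1504 and 1155. The neutrophil list summed to 1794 and 3312 counts, of which Csf3r, a gene also found in macrophages, made up 1758 and 3291, while Ly6g, S100a9 and Mpo were not listed in either library.

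Pparg was the only member called, and it was about 3-fold higher in the IL-4 library than in the NT library. The other 9 members were not called, which makes 1 of 10 called higher and 0 of 10 called lower. Over all 15593 genes tested, 4.07% were called higher, 6.28% lower and 10.4% in either direction, so the number of members called does not stand apart from the background. The members differed far more in level than in response. Of the 10, 5 lay between 10.12 and 142.3 FPKM (fragments scaled to transcript length and library total) in the IL-4 library, and the other 5 lay under 0.5 FPKM. The median of all tested genes was 4.4 FPKM in NT and 4.05 FPKM in IL-4.

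**Figure D1:**
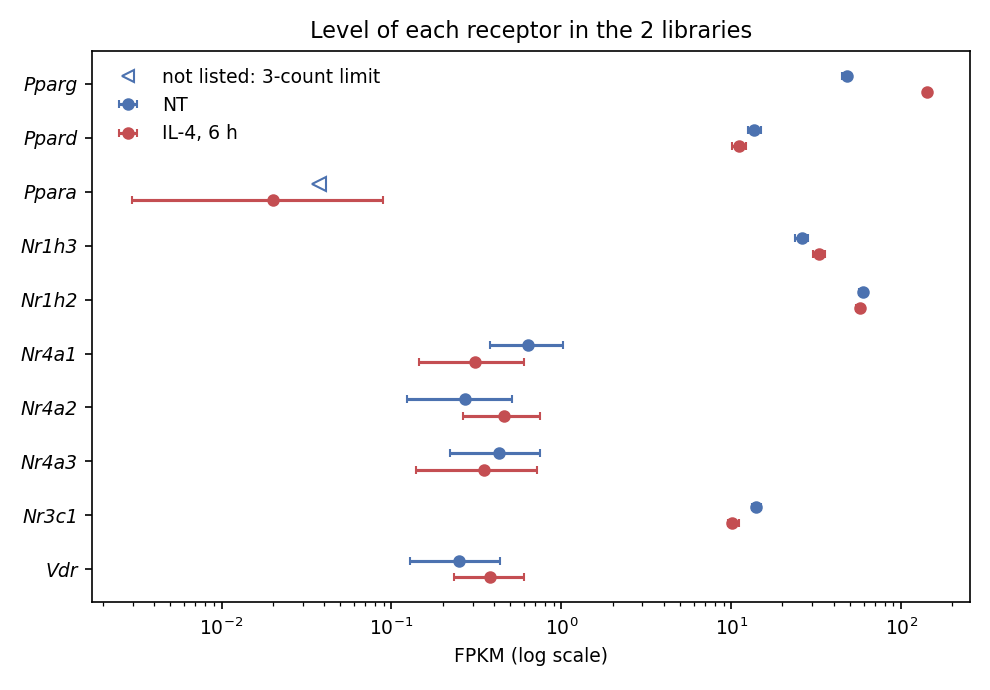
FPKM of each receptor on a log axis, in the NT (blue) and IL-4 (red) libraries, 1 library each. Bars are exact Poisson 95% intervals of the count and the open triangle is the limit of 3 counts for Ppara, not listed in NT. Pparg moved from 47.89 to 142.3 FPKM, while the NR4A genes and Vdr stayed under 1 FPKM in both.

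Pparg (gene 19016, chromosome 6, 115360879 to 115490404, GRCm38) encodes PPARγ, the receptor that macrophages and adipocytes use to drive lipid uptake and storage. Its expected count was 1077 in NT and 3192 in IL-4, and its level was 47.89 and 142.3 FPKM. The Poisson intervals of these levels, from 45.1 to 50.8 and from 137 to 147 FPKM, were far apart. The log2 ratio was 1.54 (95% interval 1.44 to 1.64), a 2.91-fold rise, with an exact binomial p = 3.06e-231 (BH-adjusted 6.36e-229). The call was lost when a biological coefficient of variation of 0.4 was assumed in the edgeR exact test, and was kept at 0.2. Among the 635 genes called higher, 292 had a larger ratio. Pparg went from place 1452 to place 508 among tested genes ordered by FPKM, and from the 2nd to the 1st place among nuclear receptors. In this bulk RNA, more cells that express Pparg and more Pparg RNA per cell cannot be told apart. Adipoq, an adipocyte hormone and a known PPARγ target, had 139 counts in IL-4 and was not listed in NT. Of the 10 adipocyte markers searched, Plin1, Cidec, Lep, Cfd, Adrb3 and Ucp1 were not listed in either library, Retn had 1 count in NT and 0 in IL-4, Plin4 had 0 and 1, and Aqp7 had 7.56 and 8.9. The whole list summed to 8.56 counts in NT and 148.9 in IL-4. The part of adipocyte RNA in the Pparg result was not tested.

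Pparg is transcribed from alternative promoters, and the RefSeq promoter windows used here cover 3 start sites for it on GRCm38. The gene begins at 115360879, before the first of these 3, so they are not all of its starts. The 120 bases before each start are shown because Pparg was the called member and its starts lie in unlike sequence. Capitals mark the hexamer AGGTCA that nuclear receptors recognise, searched on both strands. From the first to the last start, they are chr6:115361024-115361143, chr6:115362229-115362348 and chr6:115421946-115422065, all on the plus strand.
Pparg start 1: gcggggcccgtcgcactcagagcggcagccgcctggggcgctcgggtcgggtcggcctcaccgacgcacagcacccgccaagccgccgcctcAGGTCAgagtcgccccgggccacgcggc
Pparg start 2: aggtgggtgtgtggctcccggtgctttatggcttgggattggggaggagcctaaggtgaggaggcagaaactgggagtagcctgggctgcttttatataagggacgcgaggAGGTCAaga
Pparg start 3: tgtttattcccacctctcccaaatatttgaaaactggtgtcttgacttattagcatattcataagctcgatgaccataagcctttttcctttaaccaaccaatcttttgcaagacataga

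The windows of these starts, 250 bases before to 50 after, had GC contents of 80.3%, 62.7% and 40.3%, against a median of 52.7% over 32851 RefSeq promoter windows. The hexamer AGGTCA lay at positions -28 to -23 from the first start and -9 to -4 from the second. Of the 12 windows of the 9 matched members, 2 held this hexamer, and both belong to Pparg, which has 3 windows. That share is close to the 16.3% of all windows that hold it. The STAT6 site TTCNNNNGAA, found in 6.95% of all windows, was in none of the 3 Pparg windows. The deposited tables add the transcripts of a gene together, so the starts could not be counted separately. The length of Pparg weighted over its 4 transcripts was 2037.71 bases in NT and 1993.51 in IL-4.

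Ppard (chromosome 17, 28232754 to 28301469) encodes PPARδ, a broadly expressed receptor of fatty acids. It had 492 counts in NT and 406 in IL-4, or 13.67 and 11.06 FPKM. Its log2 ratio of -0.30 (interval -0.50 to -0.11) lay below 0 but did not reach the threshold. Ppara (chromosome 15, 85734910 to 85806851), the PPAR of liver fat oxidation, was not listed in NT and had 2 counts (0.02 FPKM) in IL-4. The exact Poisson interval of its count of 0 ran up to 0.0463 FPKM in NT, where 3 counts would be 0.0377 FPKM. Ppara was at or under the limit of 3 counts in both libraries, and no ratio is given. Within the family, the ratio of Pparg differed from that of Ppard by 1.84 on the log2 scale (interval 1.63 to 2.06; Fisher's exact test on the reads, p = 8.35e-64, BH over 8 pairs 6.68e-63). The library totals cancel in this comparison. Pparg made up 77.8% of the summed FPKM of the 3 PPARs in NT and 92.8% in IL-4, and the sum went from 61.56 to 153.38 FPKM.

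Both LXR genes were abundant and neither was called. Nr1h2 (chromosome 7, 44549616 to 44553968) encodes LXRβ, the form found in most tissues. It had 1324 counts (59.46 FPKM) in NT and 1296 (57.1 FPKM) in IL-4. The values are nearly equal, and the interval of its log2 ratio of -0.06 ran from -0.17 to 0.05. Nr1h3 (chromosome 2, 91184061 to 91202829) encodes LXRα, the form enriched in liver, fat and macrophages. It had 523 counts (26.08 FPKM) in NT and 671 (32.85 FPKM) in IL-4, a log2 ratio of 0.33 (interval 0.16 to 0.50), above 0 and below the threshold. The ratio of Nr1h3 exceeded that of Nr1h2 by 0.39 on the log2 scale (interval 0.19 to 0.59; Fisher's exact test, p = 0.000121, BH over 8 pairs 0.000484). Nr1h2 was 2.28 times as abundant as Nr1h3 in FPKM in NT and 1.74 times in IL-4. The sum of the LXR genes was 85.54 FPKM in NT and 89.95 FPKM in IL-4. An exon of Nr1h3 shares 34 bases with the noncoding gene Gm13783, for which neither table lists a value.

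**Figure D2:**
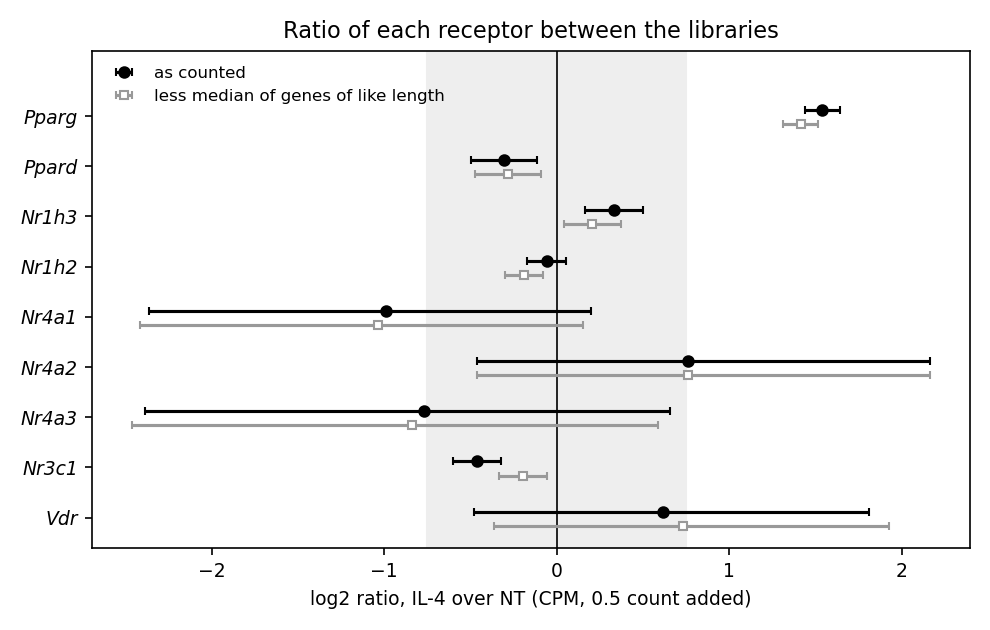
Log2 ratio of IL-4 over NT for the 9 receptors with over 3 counts, as counted (black) and after subtraction of the median of 200 genes of like transcript length (grey), with exact 95% counting intervals. Values within the grey band were under 0.75 in size, and Pparg at 1.54 was the only member whose whole interval lay outside it.

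The 3 NR4A genes were barely expressed in either library. Nr4a1 (Nur77; chromosome 15, 101253902 to 101274795) had 18 counts in NT and 9 in IL-4, or 0.64 and 0.31 FPKM. Nr4a2 (Nurr1; chromosome 2, 57106830 to 57124003) had 9 counts in NT and 15.94 in IL-4, or 0.27 and 0.46 FPKM. Nr4a3 (Nor1; chromosome 4, 48045078 to 48086447) had 12.02 counts in NT and 7 in IL-4, or 0.43 and 0.35 FPKM. None was called and each interval spanned 0. The log2 ratios were -0.99 (-2.37 to 0.20) for Nr4a1, 0.76 (-0.46 to 2.16) for Nr4a2 and -0.77 (-2.39 to 0.66) for Nr4a3, so a 2-fold difference, down for Nr4a1 and Nr4a3 or up for Nr4a2, was not detectable at this depth. Added together, the family had 39.02 counts in NT and 31.94 in IL-4, a log2 ratio of -0.31 (-1.03 to 0.40). Between members, the largest difference of ratios was -1.79 for Nr4a1 less Nr4a2 (interval -3.71 to 0.01; Fisher's exact test, p = 0.0508, BH over 8 pairs 0.102). The weighted length of Nr4a3 was 2550.66 bases in NT and 1794.21 bases in IL-4, from 12.02 and 7 counts shared by 2 transcripts.

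The promoters of the NR4A genes are shown because the 3 genes were low together and their start regions carry a like feature. Capitals mark TGACG or its reverse complement CGTCA, the core of the cyclic AMP response element. The stretches run from position -240 to -30 from a RefSeq start. They lie at chr15:101266606-101266816 on the plus strand for Nr4a1, chr2:57124033-57124243 on the minus strand for Nr4a2 and chr4:48045065-48045275 on the plus strand for Nr4a3. The Nr4a1 gene begins at 101253902 and the Nr4a3 gene at 48045078, upstream of the starts used here.
Nr4a1: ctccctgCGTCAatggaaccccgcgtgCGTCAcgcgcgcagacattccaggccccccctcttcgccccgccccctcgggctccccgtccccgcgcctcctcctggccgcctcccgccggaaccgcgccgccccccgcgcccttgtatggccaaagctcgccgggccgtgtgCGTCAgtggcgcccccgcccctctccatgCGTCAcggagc
Nr4a2: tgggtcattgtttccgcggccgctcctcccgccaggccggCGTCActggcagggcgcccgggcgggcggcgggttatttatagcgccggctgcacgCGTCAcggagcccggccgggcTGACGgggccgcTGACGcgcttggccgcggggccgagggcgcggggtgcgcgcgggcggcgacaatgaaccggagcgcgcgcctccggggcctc
Nr4a3: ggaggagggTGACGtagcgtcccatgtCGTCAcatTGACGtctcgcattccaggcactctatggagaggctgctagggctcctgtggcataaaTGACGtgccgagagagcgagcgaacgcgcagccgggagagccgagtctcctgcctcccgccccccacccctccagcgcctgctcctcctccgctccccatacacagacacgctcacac

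Each NR4A window held 4 of these cores over both strands. At least 4 were found in 76 of 32851 RefSeq windows (0.231%) and at least 1 in 20.8%, while Ppard, Ppara and Nr1h2 had 1 each and the Pparg, Nr1h3 and Vdr windows had 0. The number 4 was picked after the counts in these windows were seen. The core contains a CG pair, and the share over all windows was not matched for GC content. The Nr4a1, Nr4a2 and Nr4a3 windows had GC contents of 72.3%, 81.7% and 64.7%, against a median of 52.7%. The first Pparg window, at 80.3%, held 0 cores. The part of GC content in the NR4A counts was not tested. The full element TGACGTCA, in 1.79% of all windows, was in no window of a member. The NGFI-B response element AAAGGTCA, to which NR4A monomers bind, was in none either and in 1.51% of all windows.

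Vdr (chromosome 15, 97854427 to 97908296), the receptor of the active form of vitamin D, was as low as the NR4A genes. It had 12 counts (0.25 FPKM) in NT and 19 (0.38 FPKM) in IL-4, and the log2 ratio was 0.61 (interval -0.48 to 1.81). The STAT6 site TTCNNNNGAA was in 1 of 12 member windows, that of Vdr, and in 6.95% of all windows. A single hit does not stand apart from that share. The site is in capitals in the stretch of 40 bases at chr15:97908492-97908531 (minus strand), and spans positions -220 to -211 from the start.
Vdr: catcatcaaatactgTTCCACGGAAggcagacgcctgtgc

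Of 5 genes of the vitamin D response, Cyp24a1, Cyp27b1, Trpv6 and Calb1 were listed in neither library. Spp1 (osteopontin), which many other factors control, had 16585 counts in NT and 18790 in IL-4 and was not called.

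Among the steroid receptors, the glucocorticoid receptor gene Nr3c1 lies at 39410545 to 39519421 of chromosome 18. It had 988.16 counts (13.94 FPKM) in NT and 731.83 (10.12 FPKM) in IL-4. The log2 ratio of -0.46 (interval -0.60 to -0.32; exact binomial p = 5.45e-11, BH-adjusted 5.52e-10) was below 0 by counting error but did not reach the threshold of 0.75. Nr3c1 has a weighted transcript length of 6345 bases. Across 8463 genes of 200 reads or more in these libraries, transcript length and log2 ratio had a Spearman correlation of -0.452, a description across genes that share both libraries. The 200 genes closest to Nr3c1 in length had a median ratio of -0.27. Less this median, the ratio of Nr3c1 was -0.19 (interval -0.33 to -0.05). The part of transcript length in the result was not tested. When calls were made instead on a fold over 1.5 and BH up to 0.05, Nr3c1 was not called either. Nr3c1 and Vdr differed in ratio by -1.10 (interval -2.28 to 0.03; Fisher's exact test, p = 0.0437, BH over 8 pairs 0.102).

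By level in FPKM, Pparg and Nr1h2 exchanged the first place between the libraries. In NT, Nr1h2 led Pparg, Nr1h3, Nr3c1 and Ppard, and the intervals of neighbours overlapped only for Nr3c1 and Ppard. Nr4a1, Nr4a3, Nr4a2 and Vdr followed, each overlapping the next, and Ppara was last. In IL-4, Pparg led Nr1h2, Nr1h3, Ppard and Nr3c1, and again only Ppard and Nr3c1 overlapped. Nr4a2, Vdr, Nr4a3 and Nr4a1 followed with overlapping intervals. Pparg was 0.805 times as abundant as Nr1h2 in NT and 2.49 times in IL-4.

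Among all 49 mouse nuclear receptor genes, 32 were listed in NT and 35 in IL-4, and 18 and 17 of these exceeded 1 FPKM. Pparg made up 16.8% of their summed FPKM in NT and 38.7% in IL-4, when the sum was 285.45 and 367.39 FPKM. The obligate partner Rxra had 1577 counts in each library, 27.57 and 27.01 FPKM, and a log2 ratio of -0.03 (interval -0.13 to 0.07). Rxrb had 541 and 394 counts, with log2 ratio -0.48, below the call threshold, and Rxrg had 2.52 and 2.34 counts. The level of Pparg was thus 1.74 times that of Rxra in NT and 5.27 times in IL-4.

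**Figure D3:**
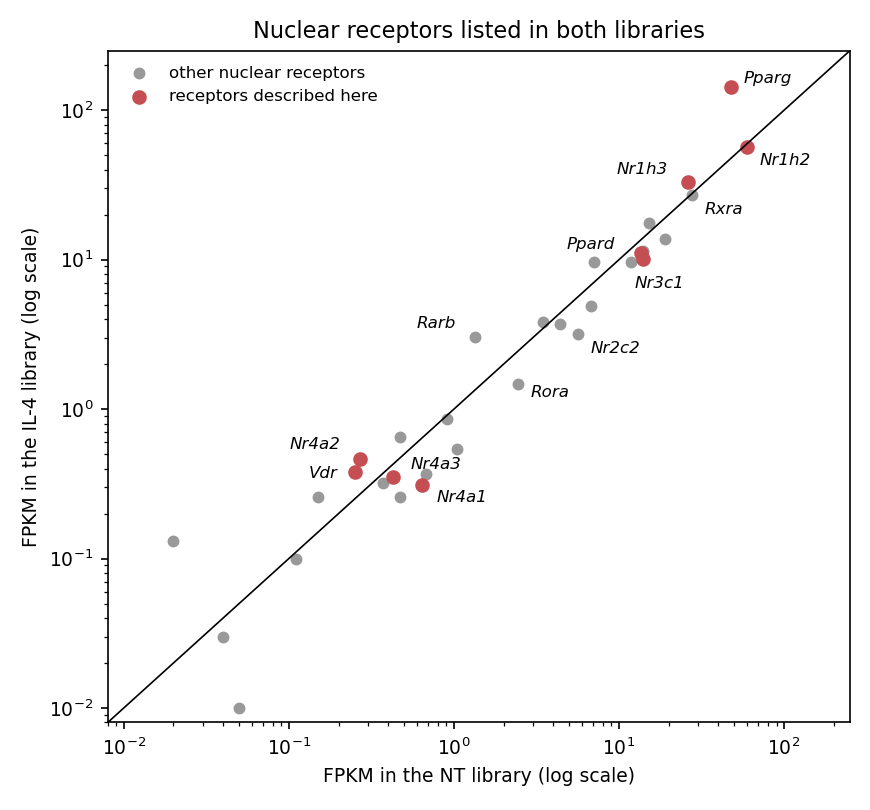
FPKM in the NT library against FPKM in the IL-4 library, both on log axes, for nuclear receptors listed in both. Red points are receptors described here, grey points the other receptors, and the line marks equal values. Pparg lies above the line at 47.89 and 142.3 FPKM, and Nr1h2 and Rxra lie close to it.

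Known targets of PPARs were examined next, from a list of 18 genes. Of 16 tested, 1 was called higher and 0 lower, or 6.25% against 10.4% of all genes. The called gene was Cd36, the scavenger receptor of oxidized lipids, which rose from 467.17 to 794.58 FPKM, a log2 ratio of 0.77 (interval 0.74 to 0.79) that includes the threshold. The median log2 ratio was 0.19 over the 15 genes with over 3 counts, against -0.03 over all genes, and 0.08 with the length median subtracted. The middle gene was Aqp7, with only 7.56 and 8.9 counts. Over the 14 genes with at least 50 counts in 1 or both libraries the median was 0.11, against -0.01 over all genes of that depth. The abundant lipid carrier Fabp5 had 2207 and 1796 FPKM (log2 ratio -0.30), and Plin2, the coat protein of lipid droplets, had 749.52 and 867.44 FPKM (0.21). Neither was called. Pdk4 and Cidec were listed in neither library. Adipoq, named above as a known PPARγ target, was searched as an adipocyte marker and is outside this list. It was called higher, with 0 counts in NT and 139 in IL-4.

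The LXR target list held no gene called higher. Of 15 tested from a list of 17, 0 were called higher and 2 lower (13.3% against 10.4% of all genes). The median log2 ratio was -0.15. Abca1, the transporter of cholesterol to apolipoprotein A-I, fell from 7.94 to 3.18 FPKM, a log2 ratio of -1.32 (interval -1.50 to -1.14). Mylip, the ligase that degrades the LDL receptor, fell from 5.96 to 2.88 FPKM (-1.05, interval -1.42 to -0.69). With the length median subtracted, their ratios were -0.79 and -1.03. The most abundant genes not called were Apoe, with 5690 and 5338 FPKM (-0.09), and Smpdl3a, with 251.88 and 183.89 FPKM (-0.45).

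Glucocorticoid receptor targets held more calls. Of 15 tested, 4 were called higher and 1 lower (33.3% against 10.4% of all genes), with a median log2 ratio of 0.24. Fkbp5, a cochaperone of the receptor, rose from 82 to 190 counts (log2 ratio 1.18, interval 0.80 to 1.58). Errfi1 rose from 66 to 123 counts (0.87, interval 0.43 to 1.32), and Zfp36, which promotes decay of cytokine messages, from 580 to 1033 (0.80, interval 0.66 to 0.95). With the length median subtracted, the ratio of Zfp36 was 0.68, under the threshold, and the list median was 0.10. The fourth was Klf9 at 0.76. The clock gene Per1 fell from 364 to 173 counts (-1.10, interval -1.37 to -0.84). Sgk1 (225.99 and 231.64 FPKM) and Mt1 (96.4 and 107.92 FPKM) were not called.

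The NR4A genes were set beside 17 other immediate early genes. The only IL-4 library was taken at 6 h, so a change that came and went before then was not measured for any of them. Of these, 6 were called higher and 0 lower (35.3% against 10.4% of all genes). Ier3 rose from 60 to 728 counts (log2 ratio 3.56), Egr2 from 970 to 3225 (1.70), Klf4 from 169 to 458 (1.41) and Maff from 59 to 131 (1.12). Atf3 and Zfp36 were the other two, and Zfp36 was under the threshold with the length median subtracted. Jun had 2698 and 2692 counts (-0.03) and Junb had 1277 and 1563 (0.26), and neither was called. The median log2 ratio of this list was 0.41 over 16 genes with over 3 counts and 0.29 with that median subtracted, and Zfp36 and Dusp1 also stand in the glucocorticoid receptor list.

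Coregulators, the proteins that receptors recruit to silence or activate genes, had mostly negative ratios. Of 16 tested, 1 was called higher and 4 lower (31.2% against 10.4% of all genes), with a median log2 ratio of -0.49. The coactivator gene Ncoa1 fell from 502 to 236 counts (-1.12, interval -1.35 to -0.89) and Tbl1xr1, of the NCoR complex, from 781.16 to 383.12 (-1.05, interval -1.24 to -0.88). Crebbp fell from 561 to 312 counts (-0.87). The PPAR coactivator Ppargc1b rose from 81 to 158 counts (0.93, interval 0.54 to 1.34), while Gps2 (47.52 and 50.42 FPKM) and Ncoa3 (25.15 and 24.2 FPKM) were not called. With the length median subtracted, the 4 genes called lower, Ncoa1, Tbl1xr1, Crebbp and Ppargc1a, had ratios of -0.65, -0.64, -0.42 and -0.74, all under the threshold in size, and the list median was -0.12.

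**Figure D4:**
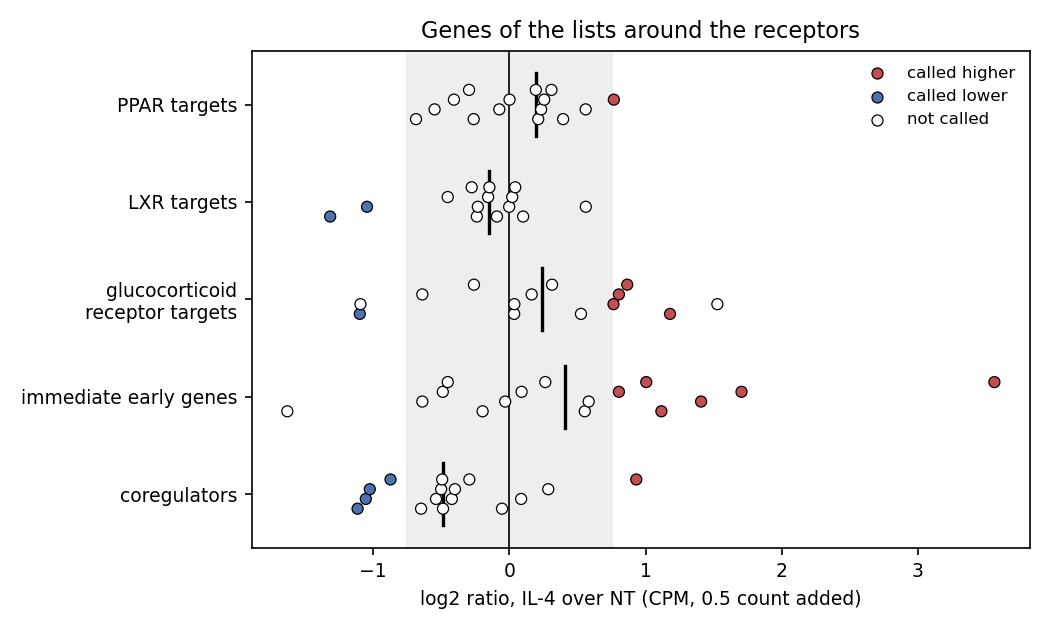
Log2 ratio of IL-4 over NT for each gene with over 3 counts in lists of receptor targets, immediate early genes and coregulators. Red points were called higher, blue lower and white not called, the black bar is the median of the list, and the grey band marks ratios under 0.75 in size. PPAR targets lie from Lpl at -0.69 to Cd36 at 0.77, and the coregulator median is -0.49.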

How the data were processed

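RNA sequencing of peritoneal macrophages was analysed in 1 NT and 1 IL-4 library. As the labels and methods state, the authors mapped reads to GRCm38/mm10 with Bowtie and deposited RSEM expected counts per gene, which are not scaled for depth, and FPKM, scaled for transcript length and depth. The versions and the strand setting were not given in the sources used here. A gene absent from a table was set to 0. Gene numbers were matched to symbols in RefSeq (GRCm38.p6), 15587 of 15623.

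Expected counts were rounded and each of 15593 genes was tested by the exact conditional binomial, two-sided, against the library totals (scipy 1.17.1), with BH adjustment over all of them. Intervals are Clopper-Pearson for ratios and Poisson for levels. PCR reads are not independent molecules, so both may be too narrow. A count of 0 was read as at most 3 counts. Differences within families were tested with Fisher's exact test on the reads of each pair. Alternatives used edgeR 4.0.16 and DESeq2 1.42.0. The fit was tested on simulated data drawn with counting error only, so that test cannot bear on the spread between animals. The length median of a gene came from the 200 nearest genes with at least 200 reads.

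The members and lists were chosen with earlier results of these data known. All members are named. From each list the text names up to 4 called genes with at least 50 counts, those of largest ratio, the 2 most abundant genes that were not called, the RXR genes and Alox15. Other list genes were picked after their values were seen. Genes of like pattern were not searched, since 2 libraries give a single ratio per gene. Promoter windows from RefSeq matched 9 members.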

Additional observations from a re-analysis of the deposited data

How the results depend on the processing

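No paired analysis was possible because NT and IL-4 were 1 library each. Over the alternatives, 98 member results kept their direction and whether the member was called. The edgeR tests, the other call limits and the filter on low counts reuse the main ratio, so only the call could change there. The size of the ratio crossed 0.75 in some alternatives for the NR4A genes, which were not called in any. With FPKM plus 1, Nr4a1 reached -0.32, Nr4a2 0.20 and Nr4a3 -0.08. With FPKM plus 0.1, Nr4a2 was 0.60 and Nr4a3 -0.24. Nr4a3 was -0.73 with TMM scaling and -0.74 with median-of-ratios scaling. Nr4a2 was 0.74 with the total without the 100 most abundant genes. The exception was Pparg with the edgeR exact test at an assumed biological coefficient of variation of 0.4, where its ratio of 1.54 was no longer called and 0 members were called higher, since that test widens the error of every gene. Over all alternatives the ratio of Pparg ran from 1.41 to 1.58. In no alternative was a member called lower. The other scalings shifted every log2 ratio by at most 0.037. The number of all genes called depended more on the setting, from 65 higher and 8 lower with the coefficient of 0.4, and 390 and 423 with 0.2, to 754 and 1207 at a fold over 1.5. With FPKM plus 1 the numbers were 391 and 399, and with the stricter log2 limit of 1 they were 408 and 476. Depth limits the NR4A genes, Vdr and Ppara, with at most 19 counts in either library. Subtraction of the length median moved the list medians of coregulators from -0.49 to -0.12, of immediate early genes from 0.41 to 0.29, of glucocorticoid receptor targets from 0.24 to 0.10 and of PPAR targets from 0.19 to 0.08.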

Other observations

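Enzymes that make or clear ligands of these receptors were also listed. Of 9 tested from a list of 12, 4 were called higher and 1 lower, or 55.6% against 10.4% of all genes. The median log2 ratio was 1.81 over the 7 genes with over 3 counts. It was -0.52 over the 3 genes with at least 50 counts in 1 or both libraries. Of the 4 genes called higher, only Ptgs1 had that many. Alox15, the lipoxygenase whose products can bind PPARγ, went from 4 to 29 counts (log2 ratio 2.68, interval 1.32 to 4.80). Ptgs1, a cyclooxygenase, rose from 276 to 1166 counts (2.05, interval 1.86 to 2.25), while Hpgds, a prostaglandin D synthase, fell from 1667.87 to 739.22 (-1.20, interval -1.33 to -1.08). Ch25h, which makes the LXR ligand 25-hydroxycholesterol, went from 1 to 25 counts (4.06, interval 2.01 to 9.98). Cyp7b1, also called higher, went from 3 to 12 counts (1.81, interval 0.08 to 4.44). Cyp27a1, the source of another LXR ligand, had 229 and 163 counts (-0.52) and was not called. Hsd11b1, which activates glucocorticoids, had 1 count in each library.

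Several PPAR and LXR targets were picked after their values were seen because their ratios pointed in unlike directions. Fabp4, a lipid carrier and classical PPARγ target, had 599.05 FPKM in NT and 714.84 in IL-4 (log2 ratio 0.26, interval 0.20 to 0.32), and Lpl, which releases fatty acids from lipoproteins, had 342.09 and 212.52 (-0.69, interval -0.72 to -0.65). Neither was called. Abcg1, the cholesterol exporter to HDL, had 40.4 and 59.58 FPKM (0.56, interval 0.49 to 0.63) and was not called, while Abca1, the other exporter, was called lower. With the length median subtracted, the Abcg1 ratio was 0.86.

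Outside the members, 4 of 22 other nuclear receptors tested were called, or 18.2% against 10.4% of all genes. Rarb, a retinoic acid receptor, rose from 44 to 102 counts (1.18, interval 0.66 to 1.73). Nr2c2 fell from 481 to 275 counts (-0.83), Rora from 295.96 to 176.15 (-0.77) and Nr6a1 from 47 to 25 (-0.93). With the length median subtracted, the ratios were -0.36 for Nr2c2, -0.20 for Rora and -0.66 for Nr6a1, all under 0.75 in size.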
